A study of Mus musculus with 12 samples.

Results

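The genes described here are 40 cell cycle genes, 17 of DNA replication and the entry into S phase and 23 of mitosis, chosen by gene symbol from the 18609 genes listed for each library. All 40 symbols were found, and all 40 passed the filter on low values (at least 0.5 FPKM in at least 3 libraries), as did 12164 genes in all. The material was total RNA of tumours grown in C57BL/6 mice from MC38, a line of mouse colon cancer cells. There were 12 libraries in 4 groups of 3: wild-type or TLR4 knockout hosts, injected intravenously with phosphate-buffered saline (PBS) or Salmonella and sampled 1 day later. TLR4 is the receptor for bacterial lipopolysaccharide, and the labels give its deletion as the genotype of the host. The 3 libraries of a group carry the names F-1, M-1 and M-2 in their titles. Nothing in the labels says that they came from separate mice, so p-values measure only the spread between these libraries.

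Cells copy their DNA in S phase and divide it in mitosis, and the genes needed for each step are transcribed shortly before or during it. Replication genes are switched on at the start of S phase by E2F transcription factors once cyclin-dependent kinases have relieved the block by retinoblastoma proteins. Mitotic genes follow later, under the MuvB complex with B-MYB and FOXM1, and their products assemble the spindle, check chromosome attachment and destroy the mitotic cyclins. In a tumour, RNA of both sets comes mostly from cycling cells. In bulk tissue, fewer cycling cells and less of these RNAs per cell cannot be told apart.

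The promoters of both sets are described first, because their motif counts use no expression value. The promoters printed below were chosen by p in wild-type hosts, apart from those stated as added. RefSeq promoters (GRCm38.p6, 250 bases before to 50 after the gene start) were matched for 13 of the 17 replication genes and 17 of the 23 mitotic genes. Exact matches were counted on both strands, and none of the motifs contains another. The E2F element, searched as TTTCCCGC or TTTGGCGC, was found in 6 of 13 replication promoters (46.2%) and in 0 of 17 mitotic promoters, against 1.63% of 27025 promoters of the same length. The replication promoters that held it were those of Cdc6, Cdt1, Mcm3, Mcm5, Mcm6 and Mcm7. The cell cycle gene homology region (CHR, TTTGAA), an element known from mitotic promoters, was found in 13 of 17 mitotic promoters (76.5%) and in 1 of 13 replication promoters, that of Mcm2, against 18.1% of all promoters. The box CCAAT was found in 16 of 17 mitotic promoters (94.1%), in 8 of 13 replication promoters (61.5%) and in 37.9% of all.

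Of the replication promoters, that of Pcna belongs to the only replication gene that rose, Cdt1 has the next smallest p among those with an entry, and Mcm6 holds 2 E2F elements. They lie at chr2:132253131-132253430 (- strand), chr8:122567765-122568064 (+ strand) and chr1:128359656-128359955 (- strand). Each is printed 5′ to 3′ on the gene's strand, with every match to 1 of the 3 motifs, on either strand, in capitals.
Pcna: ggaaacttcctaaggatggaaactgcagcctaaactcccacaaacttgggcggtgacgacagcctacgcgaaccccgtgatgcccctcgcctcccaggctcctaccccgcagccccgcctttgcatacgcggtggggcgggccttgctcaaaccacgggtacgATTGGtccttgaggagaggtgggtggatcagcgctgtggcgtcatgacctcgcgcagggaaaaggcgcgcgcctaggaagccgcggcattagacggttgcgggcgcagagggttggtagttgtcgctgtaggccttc
Cdt1: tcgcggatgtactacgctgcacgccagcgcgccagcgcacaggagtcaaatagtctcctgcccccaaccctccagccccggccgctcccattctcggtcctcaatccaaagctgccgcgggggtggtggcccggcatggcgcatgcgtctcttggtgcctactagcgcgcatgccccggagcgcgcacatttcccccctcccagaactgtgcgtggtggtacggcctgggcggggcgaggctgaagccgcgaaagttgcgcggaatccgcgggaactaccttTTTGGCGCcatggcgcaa
Mcm6: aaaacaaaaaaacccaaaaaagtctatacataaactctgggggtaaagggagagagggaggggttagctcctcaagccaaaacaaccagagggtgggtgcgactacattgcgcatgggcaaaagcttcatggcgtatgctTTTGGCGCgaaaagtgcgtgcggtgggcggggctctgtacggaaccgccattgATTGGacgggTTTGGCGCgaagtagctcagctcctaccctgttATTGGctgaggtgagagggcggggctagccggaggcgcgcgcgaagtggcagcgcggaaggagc

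Of the mitotic promoters, those of Aurka and Mki67 belong to genes that fell, and that of Ccnb2 to a gene that passed no test, at 0.16 in wild-type and -0.35 in knockout hosts on the log2 scale. They lie at chr2:172370521-172370820 (- strand), chr7:135716330-135716629 (- strand) and chr9:70421505-70421804 (- strand), with capitals as above. Mcm6 and Ccnb2 were added to the printed promoters after their values were seen.
Aurka: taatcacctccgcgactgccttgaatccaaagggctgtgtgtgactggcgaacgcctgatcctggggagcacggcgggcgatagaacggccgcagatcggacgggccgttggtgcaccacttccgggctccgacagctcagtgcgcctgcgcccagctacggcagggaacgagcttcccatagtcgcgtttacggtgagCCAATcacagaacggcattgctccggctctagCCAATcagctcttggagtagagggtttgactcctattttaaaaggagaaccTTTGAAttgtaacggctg
Mki67: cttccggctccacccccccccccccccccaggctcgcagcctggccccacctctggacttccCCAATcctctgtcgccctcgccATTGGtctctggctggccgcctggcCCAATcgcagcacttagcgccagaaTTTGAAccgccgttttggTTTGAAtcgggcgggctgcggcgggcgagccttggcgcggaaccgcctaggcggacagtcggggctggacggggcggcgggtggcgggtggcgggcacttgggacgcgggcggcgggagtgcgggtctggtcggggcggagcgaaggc
Ccnb2: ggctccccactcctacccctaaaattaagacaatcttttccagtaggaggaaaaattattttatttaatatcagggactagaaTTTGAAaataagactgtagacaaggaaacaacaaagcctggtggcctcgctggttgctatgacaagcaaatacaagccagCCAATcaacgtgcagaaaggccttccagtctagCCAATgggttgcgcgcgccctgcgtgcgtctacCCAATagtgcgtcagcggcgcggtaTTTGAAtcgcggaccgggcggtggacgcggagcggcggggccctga

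In these promoters, Aurka holds 1 CHR and 2 CCAAT boxes, Mki67 2 and 3, and Ccnb2 2 and 3. Pcna holds 1 CCAAT box alone, and Cdt1 1 E2F element alone. A match describes the letters and shows no binding. Of the 13 mitotic genes with a CHR, 6 fell in wild-type hosts (below), and of the 4 without it in this window, 1 fell, where 17.2% of all genes tested fell. The other 6 mitotic genes, among them Foxm1 and Aurkb, had no promoter entry and are not counted.

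The libraries held 30516765 to 38769159 fragments, and each of the 40 genes had between 328 and 32967 fragments in a library. Libraries F-1 and M-1 of wild-type hosts with Salmonella stood apart from the other 10. Their scaling factors were 0.854 and 0.8545, against 0.9984 to 1.047 elsewhere, and their levels fell with gene length, by 0.268 and 0.253 on the log2 scale for each doubling. That slope was -0.086 in M-2 of the same group, -0.112 to -0.056 in the knockout Salmonella libraries and -0.036 to 0.028 in the PBS libraries. The summed level of 12 neutrophil markers was 18.8 to 29.1 FPKM in wild-type PBS libraries and 3129, 18894 and 2808 FPKM in wild-type Salmonella libraries (in the order F-1, M-1, M-2). It was 17.03 to 19.6 FPKM in knockout PBS and 547 to 974 FPKM in knockout Salmonella libraries. All 12 of these markers rose in wild-type hosts and 6 of 12 in knockout hosts. Of 9 neutrophil precursor genes, 4 passed the filter, and Ms4a3 was at 0 in every library. In wild-type hosts, where 18.6% of all genes rose and 17.2% fell, 9 of 10 endothelial, 7 of 9 skeletal muscle, 5 of 7 erythroid precursor and 1 of 4 neutrophil precursor genes also rose. There 5 of 11 fibroblast and pericyte genes rose and 1 fell, 1 of 11 macrophage and monocyte genes rose and 2 fell, and 2 of 11 T and NK cell genes fell; for these last 2 lists the count that fell is near the share of all genes. None of these other lists had a call in knockout hosts. The part of these cell types in the levels below was not tested. Markers of intestinal epithelium were low in every group, with a sum of 0.645 to 4.34 FPKM over the 8 listed. Tlr4 itself was at 1.59 to 3.15 FPKM in knockout PBS and 1.72 to 1.96 in knockout Salmonella libraries, against 2.48 to 2.58 and 2.58 to 3.78 in wild-type hosts. The labels give the deletion for the host and not for the MC38 cells, and which exons it removes is not given. These levels are therefore a weak check of the genotype.

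In wild-type hosts, part of the mitotic set was lower with Salmonella, and the replication set was centred near its PBS level. Among the 23 mitotic genes 10 fell and 0 rose: Foxm1, Mki67, Kif11, Cenpf, Aurka, Bub1b, Top2a, Ccna2, Birc5 and Aurkb, by 0.32 to 0.73 on the log2 scale. Among the 17 replication genes Pcna rose, by 0.32, and 0 fell. The test was limma on log2(FPKM / scaling factor + 0.5) in all 12 libraries, with p-values adjusted by Benjamini-Hochberg over all 12164 genes and a threshold of 0.05. Of all genes tested, 17.2% fell and 18.6% rose, so 10 of 23 (43.5%) lies above the share of all genes that fell, and 1 of 17 (5.88%) below the share that rose. At an unadjusted p under 0.05, 12 of 23 mitotic genes and 1 of 17 replication genes, Pole, were lower, where 23.3% of all genes were. At that p, 3 of 17 replication genes and 0 mitotic genes were higher, where 24.2% of all genes were. The median difference was -0.21 for mitotic genes and -0.004 for replication genes, beside -0.014 for all tested genes. Without scaling factors, all 3 medians moved down together, to -0.40, -0.19 and -0.19.

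**Figure D1:**
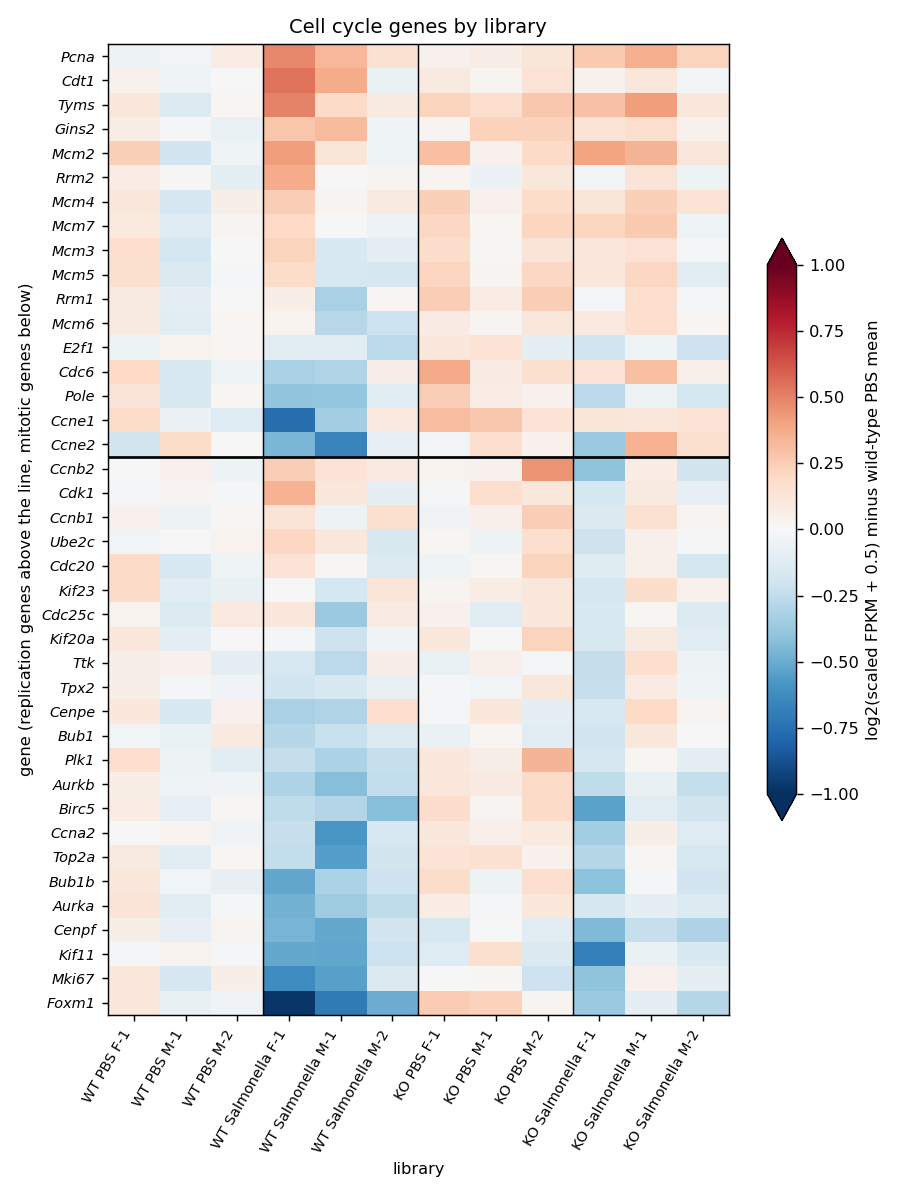
Level of each of the 40 genes (rows) in each of the 12 libraries (columns) as log2(scaled FPKM + 0.5) minus the mean of the wild-type PBS libraries. Within each set, genes are ordered by their difference between Salmonella and PBS in wild-type hosts, from Pcna at 0.32 to Ccne2 at -0.40 among replication genes and from Ccnb2 at 0.16 to Foxm1 at -0.73 among mitotic genes.

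Foxm1 encodes a transcription factor of mitotic genes and had the widest difference. It was at 21.9, 19.2 and 20.01 FPKM in wild-type PBS libraries F-1, M-1, M-2 and at 8.33, 10.1 and 14.2 FPKM in the Salmonella libraries. All 3 Salmonella libraries were below all 3 PBS libraries, and M-2 was the least changed. After scaling, Foxm1 was at a fold of 0.605 of PBS (log2 -0.73 ± 0.12 SE, limma adjusted p = 0.00227). Mki67, the proliferation marker Ki-67, was at 32.9, 27.1 and 32.0 FPKM with PBS and 16.2, 17.2 and 27.5 FPKM with Salmonella. Libraries F-1 and M-1 were well below PBS, while M-2 overlapped the lowest PBS library; the difference was -0.43 ± 0.14 (limma adjusted p = 0.0351). Top2a, the topoisomerase that untangles sister chromosomes, was at 156, 136 and 151 FPKM with PBS and 102, 82.6 and 129 FPKM with Salmonella. Again M-2 lay nearest to PBS, and the difference was -0.33 ± 0.11 (limma adjusted p = 0.0428).

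The mitotic kinases fell in part. Aurka, which acts at the spindle poles, was at 49.8, 42.3 and 45.5 FPKM with PBS and 27.0, 29.3 and 38.2 FPKM with Salmonella. The groups did not overlap, and the fold was 0.779 (log2 -0.36 ± 0.08, limma adjusted p = 0.0086). Aurkb, the kinase of the chromosomal passenger complex, was at 56.7, 52.7 and 53.1 FPKM with PBS and 35.9, 33.1 and 45.4 FPKM with Salmonella. Its groups did not overlap either, at -0.32 ± 0.08 (limma adjusted p = 0.0110). Plk1, the third kinase of the set, missed the threshold at -0.26 ± 0.10 (limma adjusted p = 0.0587), with groups that did not overlap. Birc5 encodes survivin, a partner of Aurkb at the centromere. It was at 78.1, 70.2 and 75.5 FPKM with PBS and 51.2, 49.9 and 55.1 FPKM with Salmonella, and all 3 Salmonella libraries were close to each other and below PBS (-0.33 ± 0.11, limma adjusted p = 0.0389).

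Centromere, checkpoint and spindle genes included both called and uncalled members. Cenpf, a kinetochore protein, was low throughout, at 2.15, 1.90 and 2.13 FPKM with PBS and 1.11, 1.06 and 1.74 FPKM with Salmonella (-0.39 ± 0.13, limma adjusted p = 0.0352). Bub1b, the checkpoint kinase BubR1, was at 36.5, 33.0 and 32.1 FPKM with PBS and 19.2, 22.2 and 29.1 FPKM with Salmonella (-0.35 ± 0.12, limma adjusted p = 0.0374). Kif11, the motor that pushes spindle poles apart, was at 23.9, 24.6 and 23.9 FPKM with PBS and 13.8, 13.7 and 20.6 FPKM with Salmonella (-0.42 ± 0.15, limma adjusted p = 0.0480). In each of these genes the groups were separate and M-2 was the Salmonella library nearest to PBS. Of the others of these roles, Bub1 was at -0.21, Cenpe at -0.15, Ttk at -0.12, Kif20a at -0.08 and Kif23 at -0.02, none past the threshold. Tpx2, which activates Aurka on the spindle, was at 84.5, 80.3 and 80.0 FPKM with PBS and 58.6, 60.3 and 76.9 FPKM with Salmonella. The deposited values of Tpx2 did not overlap, yet the scaled difference was -0.14 ± 0.09 (limma adjusted p = 0.234).

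The cyclins split. Ccna2, cyclin A2, which acts in S phase and G2, was at 58.7, 59.8 and 57.9 FPKM with PBS and 41.0, 32.1 and 52.2 FPKM with Salmonella, and fell by 0.33 (SE 0.12, limma adjusted p = 0.0499, at the edge of the threshold). Ccnb1, cyclin B1, the partner of Cdk1 in mitosis, was at 57.1, 53.5 and 56.5 FPKM with PBS and 50.1, 44.1 and 61.9 FPKM with Salmonella. The groups overlapped, and the scaled difference was 0.08, with a 95% interval from -0.14 to 0.30. Cdk1 was at 0.12 (-0.11 to 0.36), Ccnb2 at 0.16 (-0.12 to 0.44) and Cdc25c, the phosphatase that activates Cdk1, at -0.06 (-0.34 to 0.22). Both members of the anaphase promoting pathway were near their PBS level after scaling. Ube2c, its ubiquitin conjugating enzyme, was at 193, 197 and 204 FPKM with PBS and 188, 175 and 177 FPKM with Salmonella, a scaled difference of 0.05 (-0.20 to 0.30). Its direction turned without scaling, to -0.14, and Cdc20, the activator, was at 0.003 (-0.25 to 0.25). The 5 mitotic genes above 0 were thus Ccnb1, Ccnb2, Cdk1, Cdc20 and Ube2c, none of them past the threshold.

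**Figure D2:**
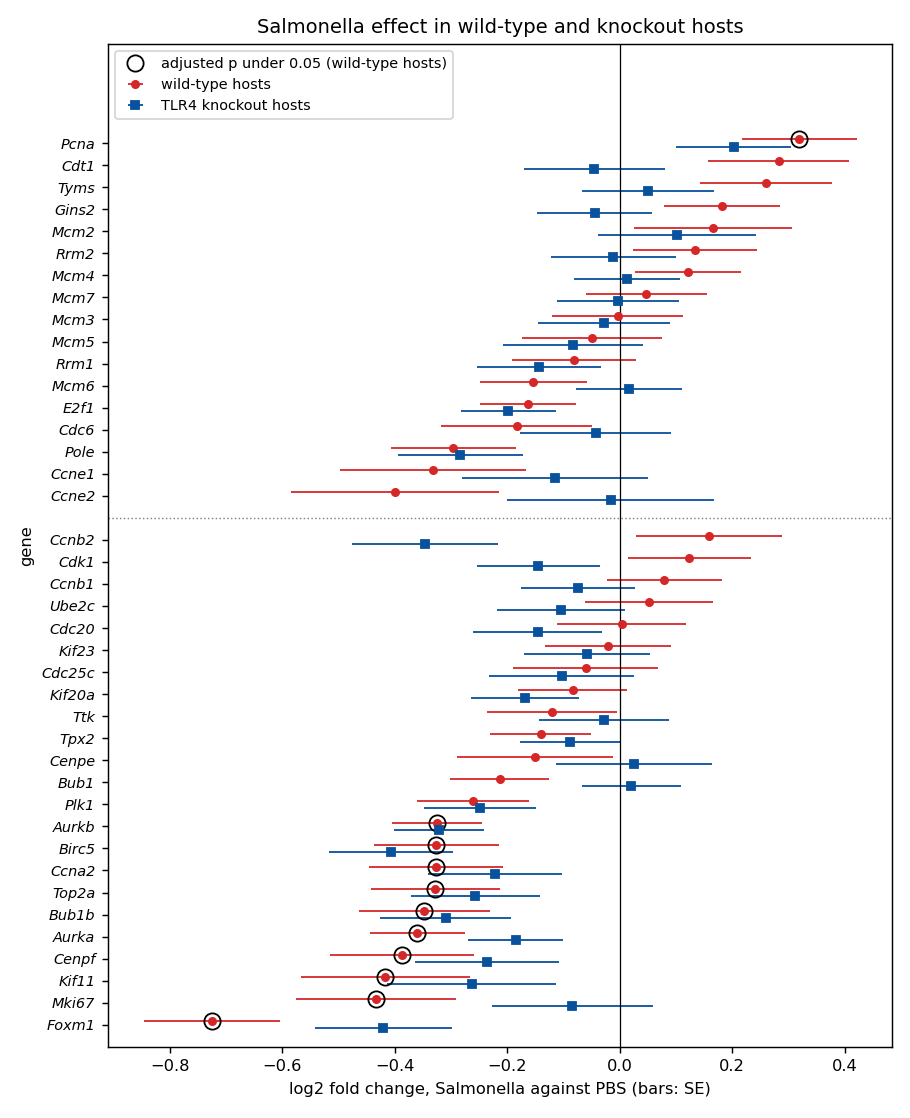
Log2 fold change of each of the 40 genes, Salmonella against PBS, in wild-type hosts (red circles) and TLR4 knockout hosts (blue squares), with bars for 1 SE. Black rings mark the 11 genes past the adjusted threshold of 0.05 in wild-type hosts, 10 of them mitotic and below 0; none of the 40 passed in knockout hosts.

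Among replication genes, Pcna, the sliding clamp of the polymerases, was at 236, 239 and 259 FPKM with PBS and 280, 253 and 270 FPKM with Salmonella. The deposited values overlapped, the scaled ones did not, and the scaled difference was 0.32 ± 0.10 (limma adjusted p = 0.0313). The subunits of the MCM helicase, which unwinds DNA at the fork, lay on both sides of 0: Mcm2 at 0.17, Mcm4 at 0.12, Mcm7 at 0.05, Mcm3 at -0.004, Mcm5 at -0.05 and Mcm6 at -0.15. Mcm5, the most abundant of them, was at 111, 89.5 and 98.9 FPKM with PBS and 92.6, 73.2 and 87.8 FPKM with Salmonella. The helicase partner Gins2 was at 0.18. None of the 7 passed the threshold.

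The genes that supply deoxynucleotides, Rrm1, Rrm2 and Tyms, were at -0.08, 0.13 and 0.26. Rrm2, a subunit of ribonucleotide reductase, was at 150, 143 and 136 FPKM with PBS and 152, 118 and 145 FPKM with Salmonella, in full overlap. Of the licensing genes, which load the helicase, Cdt1 was at 0.28 and Cdc6 at -0.18, and Pole, the leading strand polymerase, was at -0.30 (limma adjusted p = 0.0560). The lowest members were the cyclin E genes, which act at the start of S phase, with Ccne1 at -0.33 and Ccne2 at -0.40 (limma adjusted p = 0.134 and 0.108). E2f1 was at 36.5, 38.7 and 38.8 FPKM with PBS and 28.9, 28.8 and 31.3 FPKM with Salmonella. These groups did not overlap, and the scaled difference was -0.16 ± 0.09 (limma adjusted p = 0.149).

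Groups that did not overlap after scaling were found with Salmonella lower for 12 of 23 mitotic genes and E2f1, where 22.9% of all genes did so. With Salmonella higher they were found for Pcna and Ccnb2, where 22.6% of all genes did so. The 12 mitotic genes were Foxm1, Aurka, Aurkb, Plk1, Bub1, Bub1b, Birc5, Cenpf, Kif11, Tpx2, Top2a and Ccna2. Of the 10 mitotic genes that fell, 9 were highest in M-2 among the Salmonella libraries.

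The calls rested on few libraries. Leaving out 1 library at a time gave 2 (without wild-type Salmonella M-1) to 11 (without wild-type Salmonella M-2) mitotic genes that fell. The count was 3, 4 and 3 without wild-type PBS F-1, M-1 and M-2, 3 without wild-type Salmonella F-1, 6 without knockout PBS F-1 and 5 without knockout Salmonella M-2. Without wild-type Salmonella M-2, 4 replication genes rose and 3 fell. The share of all genes called in each of these fits is not given here. A wider gain or loss of calls over all genes therefore cannot be told apart from one in these sets. Foxm1 and Aurka kept their call in all 12 of these fits and in all 13 other settings run, and Aurkb in 11 of 12 and 13 of 13. Of the other calls, Birc5 was kept in 5 of the 12 leave-one-out fits, and in 0 of the 6 that left out a wild-type library. Mki67 was kept in 8 of 12, Pcna in 7, Bub1b and Cenpf in 6, Kif11 and Top2a in 4 and Ccna2 in 3. In the 6 fits that left out a wild-type library, Mki67 was kept in 2, and Pcna, Bub1b, Cenpf, Kif11, Top2a and Ccna2 in 1 each.

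Gene length moved with the treatment and bears on these values. Over all tested genes, the median difference in wild-type hosts went from 0.30 in the shortest of 5 length classes of nearly equal size (206 to 1784 bases) through 0.08, -0.03 and -0.13 to -0.19 in the longest class (6118 bases and above). Mki67 and Cenpf, at 10079 and 11365 bases, are the longest of the 40 genes, and Pcna, at 1260 bases, and Birc5, at 972 bases, are among the shortest. Across the 40 genes, Pearson's r between length (log2) and difference was -0.39, a description over genes that share the same libraries. With each library's length trend removed, Foxm1 was at -0.61, Aurka at -0.43, Aurkb at -0.43 and Birc5 at -0.67, and all 4 passed with all 12 libraries (limma adjusted p = 0.00303, 0.00528, 0.00370 and 0.00363). Plk1 and Ube2c then fell (-0.34 and -0.31, limma adjusted p = 0.0190 and 0.0205) and Tyms rose (0.41, limma adjusted p = 0.0389). The share of all genes called in that fit is not given here, so the number of calls has no background beside it. Mki67, Cenpf, Kif11, Top2a, Bub1b and Ccna2 no longer passed (-0.23, -0.17, -0.29, -0.18, -0.28 and -0.28), nor did Pcna (0.07). The set medians were -0.18 for mitotic genes and 0.009 for replication genes in that fit, beside 0.009 for all genes.

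**Figure D3:**
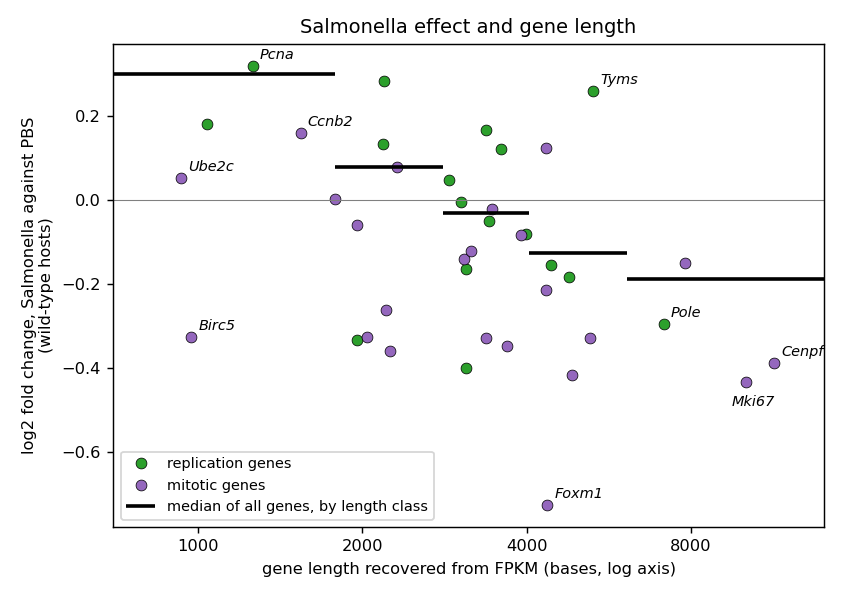
Log2 fold change in wild-type hosts, Salmonella against PBS, of the 17 replication genes (green) and 23 mitotic genes (purple) against gene length in bases (log axis). Black bars are the medians of all 12164 tested genes in the 5 length classes, from 0.30 down to -0.19; Foxm1 and Birc5 lie far below the bar of their length, and Mki67 and Cenpf lie nearer to theirs.

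The difference between the mean log2 level of the replication genes and that of the mitotic genes within a library hardly depends on scaling. It was 0.289, 0.250 and 0.275 in wild-type PBS libraries F-1, M-1, M-2 and 0.5604, 0.476 and 0.353 in wild-type Salmonella libraries. In knockout hosts it was 0.405, 0.310 and 0.319 with PBS and 0.620, 0.440 and 0.407 with Salmonella. In both hosts every Salmonella library was above every PBS library, in knockout hosts only just, and F-1 was the highest of each group. With the length trend removed the 12 values were nearly the same, for example 0.562, 0.480 and 0.353 in wild-type Salmonella libraries. The mean over 3 libraries was 0.271 ± 0.020 (SD) and 0.463 ± 0.104 in wild-type hosts, and 0.345 ± 0.053 and 0.489 ± 0.114 in knockout hosts. Mean mitotic levels were 5.07 ± 0.065 with PBS and 4.87 ± 0.083 with Salmonella in wild-type hosts, and 5.13 ± 0.033 and 4.95 ± 0.155 in knockout hosts. Mean replication levels were 5.34 ± 0.084 and 5.33 ± 0.087, and 5.47 ± 0.044 and 5.44 ± 0.092. These set means are descriptions with no test.

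**Figure D4:**
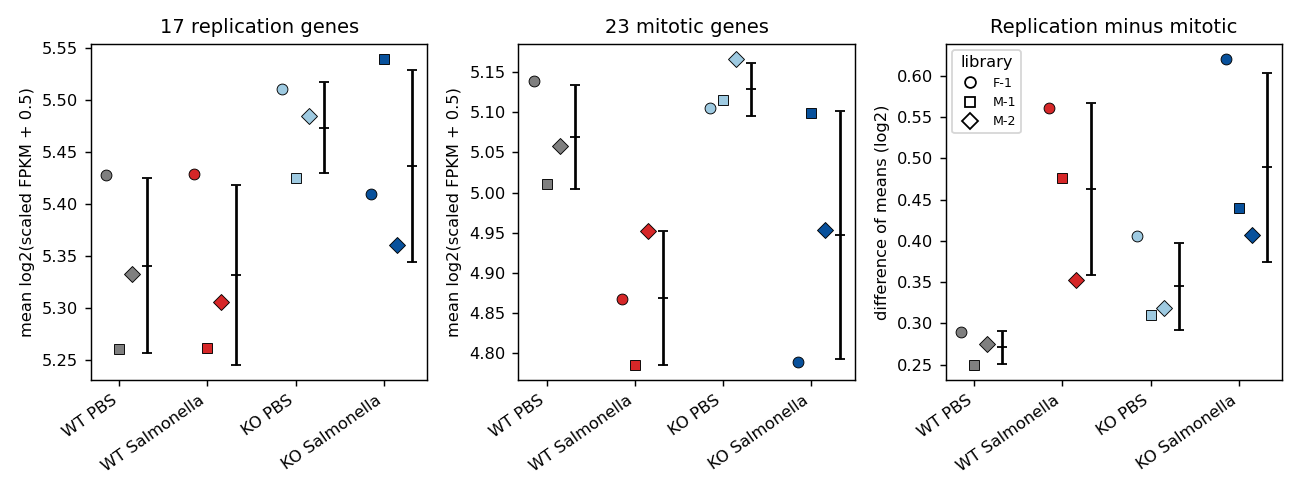
Mean log2(scaled FPKM + 0.5) of the 17 replication genes (left) and the 23 mitotic genes (middle) and their difference (right), 1 symbol per library (circle F-1, square M-1, diamond M-2), with mean and SD over the 3 libraries of a group at the right of each group. The difference was 0.250 to 0.289 in wild-type PBS libraries and 0.353 to 0.5604 in wild-type Salmonella libraries; the vertical axes are cropped and differ between panels.

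In TLR4 knockout hosts, none of the 40 genes passed the threshold between Salmonella and PBS, where 0.444% of all genes rose and 0.329% fell; with voom on the recovered fragments the count was also 0. At an unadjusted p under 0.05, 8 of 23 mitotic genes were lower (Aurkb, Birc5, Foxm1, Ccnb2, Bub1b, Plk1, Top2a and Aurka), as were 2 of 17 replication genes (Pole and E2f1), where 9.87% of all genes were. None was higher, where 9.33% of all genes were. Foxm1 was at 24.2, 23.9 and 20.6 FPKM in knockout PBS libraries and 15.0, 18.7 and 16.6 FPKM in knockout Salmonella libraries. These groups did not overlap, at -0.42 ± 0.12 (limma adjusted p = 0.110). Aurkb was at 58.3, 57.7 and 61.5 FPKM with PBS and 43.4, 50.7 and 45.9 FPKM with Salmonella, at -0.32 ± 0.08 and the smallest adjusted p of the 40 genes (limma, 0.0894). Birc5 was at 84.0, 75.9 and 84.6 FPKM with PBS and 49.2, 68.3 and 65.5 FPKM with Salmonella (-0.41 ± 0.11, limma adjusted p = 0.103).

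Mki67 was at 30.4, 30.8 and 26.2 FPKM with PBS and 22.1, 31.1 and 28.6 FPKM with Salmonella in knockout hosts, in overlap, at -0.08 ± 0.14. The groups did not overlap for 7 mitotic genes, all with Salmonella lower (Aurka, Aurkb, Plk1, Top2a, Foxm1, Birc5 and Cenpf), and for Pole, where 14.9% of all genes did so. Pcna was the member with Salmonella higher in all 3 libraries, where 14.5% of all genes did so, at 251, 255 and 264 FPKM with PBS and 281, 310 and 285 FPKM with Salmonella (0.20 ± 0.10, limma adjusted p = 0.3003). The medians were -0.17 for mitotic genes, -0.03 for replication genes and -0.003 for all genes. All 10 mitotic genes that fell in wild-type hosts were below 0 here, from -0.42 to -0.08. So were 21 of all 23 mitotic genes, 12 of 17 replication genes and 6150 of the 12164 genes tested. Within the knockout Salmonella group, F-1 was the lowest library for 22 of 23 mitotic genes and M-1 the highest for 23 of 23. Among the 17 replication genes, M-1 was likewise the highest for 15, while F-1 was the lowest for 4 and M-2 for 12. F-1 was also the knockout Salmonella library with the highest summed level of skeletal muscle markers, at 131 FPKM against 7.18 and 17.97 FPKM in M-1 and M-2. The part of these markers in the mitotic values was not tested.

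**Figure D5:**
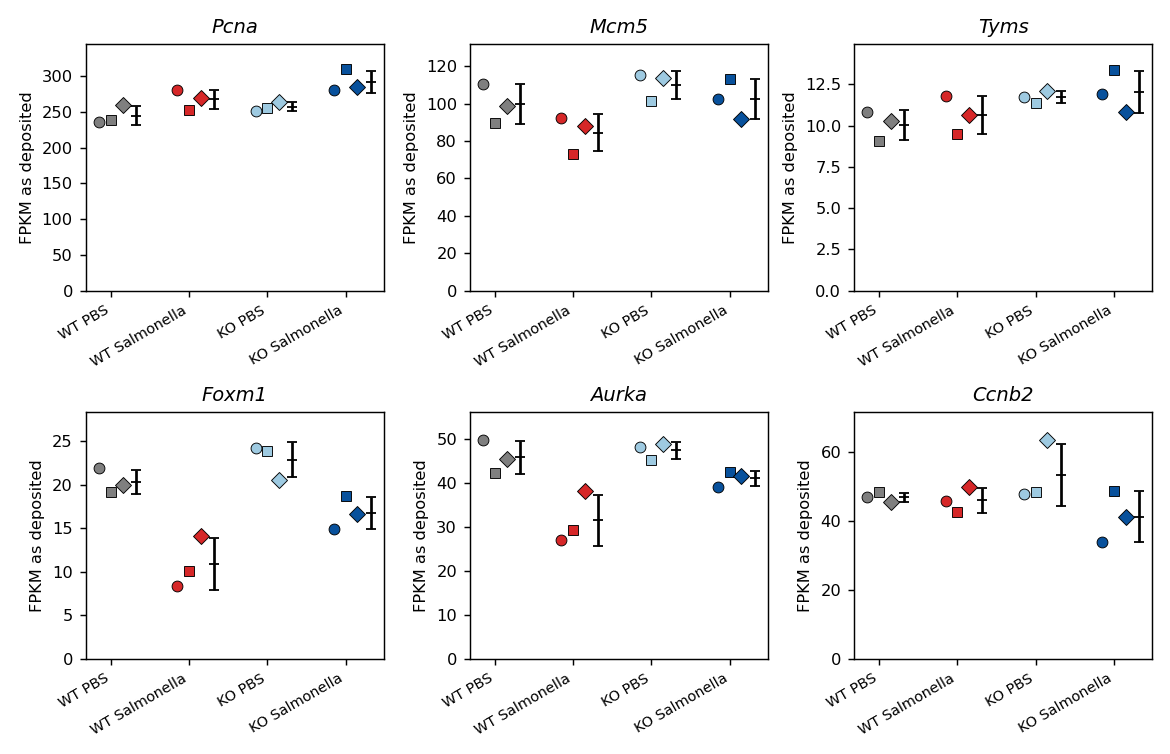
Deposited FPKM of 3 replication genes (Pcna, Mcm5, Tyms) and 3 mitotic genes (Foxm1, Aurka, Ccnb2) in each library by group (circle F-1, square M-1, diamond M-2), with mean and SD beside; axes start at 0. Foxm1 was 8.33 to 14.2 FPKM in wild-type Salmonella libraries, below all 9 others, and Pcna stayed between 236 and 310 FPKM in all 12.

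Knockout and wild-type hosts were then compared under the same treatment. Under Salmonella, Foxm1 was the member that differed, higher in knockout hosts by 0.47 ± 0.12 on the log2 scale (limma adjusted p = 0.0365), with all 3 knockout libraries (15.0, 18.7 and 16.6 FPKM) above all 3 wild-type ones (8.33, 10.1 and 14.2 FPKM). After scaling, groups that did not overlap were found with knockout hosts higher for Foxm1, Aurka, Plk1 and Ccne1, where 12.9% of all genes did so. Ccnb2 was separate with knockout hosts lower, where 13.1% of all genes did so. Of all genes, 3.31% were called higher in knockout hosts and 5.71% lower, so 1 call in 40 is not above that share. The call was not made with voom or without a filter on low values, and it was lost without wild-type Salmonella F-1 or M-1, wild-type PBS M-2, knockout PBS F-1, or knockout Salmonella M-1 or M-2. Without wild-type Salmonella M-2, 7 of the 40 genes were higher and 2 lower, with no share of all genes at hand for that fit. At an unadjusted p under 0.05, Aurka (0.23), Ccne1 (0.46), Ccne2 (0.45), Cdc6 (0.35) and Mcm6 (0.25) were also higher in knockout hosts and Ccnb2 was lower (-0.33); their adjusted p-values were 0.0938 to 0.132 (limma). With Foxm1 that is 6 of 40 genes higher and 1 lower, where 14.4% of all genes were higher and 16.2% lower, so these counts do not stand above the background.

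Under PBS, limma called none of the 40 genes, nor any of all genes tested (0% higher and 0% lower, every adjusted p being 1 for these 40); none of the 40 reached an unadjusted p under 0.05, where 0.543% of all genes were higher and 0.913% lower, and voom also called none. The 17 replication genes were all above 0 in knockout hosts, from 0.03 to 0.24 with a median of 0.15, beside 0.07 for mitotic genes and 0.007 for all genes. Above 0 were also 17 of 23 mitotic genes and 6414 of all 12164 genes. Genes of a set share the same libraries, so these counts are descriptions. The knockout PBS libraries serve as controls in the knockout comparison as well, so these values and those of Salmonella in knockout hosts are not independent.

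The test of the difference between hosts in the Salmonella effect, the interaction, called none of the 40 genes, where 0% of all genes passed as higher and 0.0247% as lower; voom also called none. At an unadjusted p under 0.05 it held Ccnb2 alone (-0.51 ± 0.18, limma adjusted p = 0.289), where 8.44% of all genes were lower and 5.98% higher, a count below the background. For Foxm1 the interaction was 0.30 ± 0.17 (limma adjusted p = 0.405), for Mki67 0.35 ± 0.20 (limma adjusted p = 0.412) and for Aurkb 0.004 ± 0.11. The fall of mitotic genes in wild-type hosts was not shown to differ from that in knockout hosts. Without wild-type Salmonella M-2, 1 gene passed as lower, with no share of all genes at hand for that fit.

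Across the 12 libraries, after removing group means, levels of mitotic genes moved together (median Pearson's r 0.51 over 253 pairs) more than those of replication genes (0.36 over 136 pairs) or pairs across the sets (0.24 over 391 pairs). These are descriptions over pairs that share libraries and depth. Pairs of other genes were not computed, so the r values are not shown to be particular to these sets.

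Other genes of the same pathways were counted in the same way in wild-type hosts, where 18.6% of all genes rose and 17.2% fell. Of 48 further replication genes, 10 rose and 3 fell, with a median of -0.07, and of 67 further mitotic genes, 1 rose and 18 fell, with a median of -0.15. With the length trend removed these counts were 7 and 7, and 1 and 16, with no share of all genes at hand for that fit. Rfc4, a subunit of the clamp loader, was at 25.5 ± 0.79 FPKM (SD, n = 3) with PBS and 31.0 ± 2.6 with Salmonella, and Gins1, another helicase partner, rose by 0.55 (limma adjusted p = 0.0118). Gmnn, geminin, which blocks licensing after S phase begins, rose by 0.46 (limma adjusted p = 0.00817). Anln, anillin of the cleavage furrow, fell from 31.7 ± 0.38 FPKM to 19.1 ± 3.6 (-0.54 ± 0.09, limma adjusted p = 0.00260). Kntc1, a kinetochore checkpoint gene, fell by 0.60 and Hjurp, the chaperone of the centromeric histone, by 0.55 (limma adjusted p = 0.00830 and 0.00941). The mean difference between further replication and further mitotic genes within a library was 0.213 to 0.268 in wild-type PBS, 0.294 to 0.527 in wild-type Salmonella, 0.248 to 0.339 in knockout PBS and 0.357 to 0.5002 in knockout Salmonella libraries.

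Upstream of both sets, 1 of 11 D cyclin, kinase and early cycle genes rose in wild-type hosts and 2 fell. Ccnd1, cyclin D1, which starts the relief of the retinoblastoma block, was at 112 ± 9.3 FPKM with PBS and 59.1 ± 11 with Salmonella in wild-type hosts, and 126 ± 15 and 97.9 ± 21 in knockout hosts. In wild-type hosts Ccnd1 fell by 0.74 (SE 0.14, limma adjusted p = 0.00387) and Ccnd3 by 0.27 (limma adjusted p = 0.0424). Of 17 retinoblastoma and E2F family genes, 1 rose and 6 fell, among them the pocket protein genes Rb1 (-0.69), Rbl1 (-0.62) and Rbl2 (-0.50). Of 20 CDK inhibitors and cycle brakes, 5 rose and 6 fell. With the length trend removed, the counts of these lists, in this order, were 1 and 2, 1 and 4, and 4 and 7. In that fit the medians went from -0.23 to -0.09, from -0.16 to -0.06 and from -0.06 to -0.19. Gadd45b, a stress gene, was at 38.0 ± 2.0 FPKM with PBS and 127 ± 68 with Salmonella (1.77 ± 0.37, limma adjusted p = 0.00689), and Gadd45g rose by 1.18. Klf4, a growth-arrest transcription factor, fell by 1.24 (limma adjusted p = 0.00132).

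Of 19 p53 target genes, 5 rose and 4 fell, with Fas at 1.996, Plk3 at 1.08 and Phlda3 at -0.88. Of 19 DNA damage checkpoint genes, 1 rose and 5 fell, with Mdc1 at -0.66, Brca1 at -0.57 and Bard1 at -0.53. With the length trend removed the counts were 6 and 3, and 1 and 4, again with no share of all genes for that fit. In knockout hosts, the counts for all 7 of these further lists were 0 rising and 0 falling, except 1 further replication gene that fell; the shares of all genes called there were 0.444% and 0.329%, as above.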

How the data were processed

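The authors deposited 1 table per library with values that behave as FPKM, made by dividing fragments per gene by gene length and library total. That unit was inferred from the values: for every one of 18609 genes (387 at 0 throughout), a single length turned all 12 values into whole fragments, to a tolerance of 0.01. Fastp, HISAT2 and HTSeq are named without roles or versions in the submitters' processing notes. The build is not given in the sources used here, and strand is not stated, so genes that overlap on opposite strands cannot be told apart. Depths of 30516765 to 38769159 fragments give 3 fragments in a gene of 1 kb as 0.0774 to 0.0983 FPKM, for counting error only.

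From these, scaling factors (unweighted mean of log ratios after trimming 30% by ratio and 5% by level) and limma 3.58.1 in R 4.3.3 were computed, on log2(FPKM / scaling factor + 0.5) with an intensity trend, robust settings, a mean for each group and residual degrees of freedom of 8. Fold changes are on that scale. A gene was tested if 3 or more libraries reached 0.5 FPKM, and all tests are two-sided. The test was also run on simulated counts that held no length trend, so that run does not bear on how the trend affects the calls. The length trend was a lowess of each library's deviations on log2 gene length (span 0.3), an alternative chosen after seeing the data. No library pair held identical values (chi-square per gene 17.6 to 175).

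The 40 genes and the other lists were chosen with earlier results of these data known. Given in full are genes called in any of 5 comparisons and the most abundant of each of 11 roles; from other lists, at most 3 called genes, by p in wild-type hosts; as promoters, the replication and mitotic genes with the smallest p, and those stated as added. Promoter entries for Mcm4, Gins2, Pole, Ccne2, Ccna2, Cdc25c, Aurkb, Foxm1, Kif20a and Tpx2 were not used here.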

Additional observations from a re-analysis of the deposited data

Results flagged for a closer look

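Ccnb2, cyclin B2, is listed because its Salmonella libraries lay on opposite sides of PBS in the 2 hosts after scaling, though neither difference passed the test. Against the mean of their own PBS group, the 3 wild-type Salmonella libraries were at 0.10 to 0.24 on the log2 scale and the 3 knockout Salmonella libraries at -0.57 to -0.10. The interaction in limma was -0.505, with an adjusted p of 0.289, so the difference between hosts did not pass over all genes. In deposited values Ccnb2 was at 46.8, 48.2 and 45.6 FPKM in wild-type PBS, 45.6, 42.5 and 49.8 in wild-type Salmonella, 47.8, 48.3 and 63.5 in knockout PBS and 34.0, 48.6 and 41.1 FPKM in knockout Salmonella libraries, each in the order F-1, M-1, M-2. Knockout PBS M-2 was the highest of all 12 libraries and knockout Salmonella F-1 the lowest. With the length trend removed, the wild-type difference was -0.02, so its direction turned. Its mean was also slightly lower with Salmonella in the deposited wild-type values, at 46.0 against 46.9 FPKM.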

How the results depend on the processing

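Of 23 mitotic genes, the 10 that fell in wild-type hosts became 4 without a filter on low values, 5 with only the groups compared, 6 with the length trend removed (chosen after seeing the data; also 6 with that and the replicate block) and 2 to 11 in the leave-one-out fits. Replication genes that rose (1) became 0 with FPKM as deposited or only the groups compared. They became 3 with array weights and 0 to 4 in leave-one-out fits. Those that fell (0) became 3 as deposited, 4 with array weights and 0 to 3 in leave-one-out fits. As deposited, 3365 of all 12164 genes fell and 1500 rose, so 3 of 17 is not above the share that fell. Whether the names F-1, M-1 and M-2 pair libraries cannot be told from these values. Over 18 pairs of like name the correlation of deviations was -0.33 to 0.40, and 7 were over 0.1. Pairs of unlike name were not computed beside them. With the name as a replicate block 6 mitotic genes fell in wild-type hosts and 0 genes differed between hosts under Salmonella. In knockout hosts array weights called 2 replication and 3 mitotic genes lower, and leave-one-out fits up to 3 mitotic genes, without wild-type Salmonella M-2. Between hosts under Salmonella, the 1 gene that was higher became 3 as deposited, 13 with array weights and 0 to 7 in leave-one-out fits. The count became 0 with no filter, voom, only the groups compared, or length trend removed with replicate block. As deposited, 834 of all 12164 genes were higher, so 3 of 40 is near that share. Genes that were lower became 2 with array weights and 0 to 2 in leave-one-out fits. For the interaction, array weights called 3 higher and 3 lower, and leave-one-out fits 0 to 1 lower. For settings other than the main fit and FPKM as deposited, the share of all genes called is not given here. Counts in those settings show how calls moved and are not read as a result about the 40 genes. Array weights gave wild-type Salmonella M-2 a weight of 0.168.

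The difference of medians, replication minus mitotic, was 0.21 in wild-type hosts and 0.0649 to 0.314 in leave-one-out fits. Between hosts under Salmonella it was -0.0919 with array weights and -0.133 to 0.111 in leave-one-out fits, and for the interaction -0.177 and -0.189 to -0.0112. Of the genes given in full, some that passed no test in the reported fit turned direction in wild-type hosts. Mcm5 was at 0.00217 with the length trend removed, with or without the block, and -0.162 to 0.0308 in leave-one-out fits. Rrm2 was at -0.0564 as deposited, and Ccnb1 at -0.11 as deposited and -0.00716 with array weights. Ube2c was at -0.139 as deposited and -0.306 with the length trend removed, with or without the block. In leave-one-out fits Ube2c was at -0.0251 to 0.156, below 0 without wild-type Salmonella F-1. Other members turned too. With the length trend removed, Gins2 (-0.13), Cdc20 (-0.14) and Ccnb2 (-0.02) went below 0, and Cenpe, Kif20a, Kif23, Mcm3 and Rrm1 above 0. The deposited means of Mcm2, Mcm4, Mcm7, Gins2, Cdk1, Cdc20 and Ccnb2 were lower with Salmonella, where their scaled differences were above 0. The causes were not tested. Each of the 40 genes had at least 328 fragments in every library.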
